A study of Mus musculus with 35 samples.

Results

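The genes described here are 54 genes of the mouse cell cycle and of DNA replication, measured in livers from a study of a chemically induced liver tumor model in C57Bl6 mice. They were given as a list of names and looked up by symbol in a table of counts for 55413 genes, and all 54 were found. Of these, 29 were grouped as mitotic: 15 as mitotic kinases, cyclins and their regulators, and 14 under the spindle, the centromere, mitotic chromosomes or cytokinesis. The other 25 were grouped as pre-mitotic: 9 under entry into S phase, 12 under replication licensing and the fork, and 4 under nucleotide supply. These roles are a grouping of the list and do not cover all that a gene does. The 21 mice fell into 4 groups. The untreated group held 5 mice whose livers, labelled normal liver, were taken at day 260 after birth, and these mice received neither carcinogen nor oligonucleotide. The other 16 mice had a single injection of 25 mg/kg diethylnitrosamine (DEN), a liver carcinogen, into the peritoneum at day 14. Of these, 4 were killed at day 133 with no oligonucleotide, 6 received a control antisense oligonucleotide (ASO), and 6 an ASO against Smyd3, which encodes a SET and MYND domain methyltransferase. Both ASOs were given at 50 mg/kg, 2 times a week after day 133, until harvest at day 260. The labels call all 3 DEN groups induced tumors or hepatocellular carcinoma, and the RNA came from pieces of liver, so a sample can hold tumor and surrounding liver. The sex of the mice is not given. Untreated livers and day-133 DEN livers differ in age as well as in DEN, day-133 and ASO-treated DEN livers differ in age as well as in ASO, and these cannot be told apart. Untreated livers and ASO-treated DEN livers, all at day 260, differ in DEN and in ASO at once, which cannot be told apart either.

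A dividing cell copies its DNA in S phase and separates the copies in mitosis. E2F factors switch on genes of S phase entry, replication and nucleotide synthesis, while a later wave of mitotic genes is held back in resting cells by the DREAM complex and switched on by B-Myb with the MuvB core and by Foxm1. The Mcm2 to Mcm7 subunits form the ring that becomes the replicative helicase, Pcna is the sliding clamp of the DNA polymerases, and Tyms, Tk1, Rrm1 and Rrm2 supply deoxynucleotides. Adult hepatocytes rarely divide, re-enter the cycle after injury, and often become polyploid by copying DNA without completing division.

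Total counts ran from 4556484 to 20258619 per mouse, with the day-133 group the shallowest (at most 6447397), and the 54 genes together received 1375 to 8533 counts. Levels are given as CPM, counts scaled to the same library size, after TMM scaling over all 21 mice, and 1 count was worth 0.0389 to 0.222 CPM. The library kit reads 3′ ends, so a level stands for transcript ends and was not divided by gene length. Smyd3 itself was at 3.87 ± 0.598 CPM (SD, n = 6) with control ASO and 0.325 ± 0.289 CPM (n = 6) with Smyd3 ASO, and it was lower in the group labelled with its ASO by a log2 change of -3.65 (adjusted p = 0.000148). The 10 most abundant genes took 24.9 to 32.2% of the counts in untreated livers and 9.46 to 15.7% in Smyd3-ASO livers, and the scaling moved every comparison with untreated livers. With library totals in place of TMM, the median log2 change of all genes tested shifted to 0.90 for control ASO over untreated, 0.96 for Smyd3 ASO over untreated and 0.59 for DEN at day 133 over untreated. It was 0.28 and 0.34 for control ASO and Smyd3 ASO over day 133, and 0.04 for Smyd3 ASO over control ASO. Markers of other cells also moved between groups, and their part in the results below was not tested. The summed hepatocyte markers ranged over 65528 to 113072 CPM in untreated livers and 22929.7 to 44028 CPM in Smyd3-ASO livers. In the same groups the erythroid markers ranged over 3565 to 8478 and 623 to 1613 CPM. Bile duct markers, at 14.8 to 30.8 CPM in untreated and 22.6 to 50.5 CPM in day-133 livers, were at 108 to 228 CPM with control ASO and 43.2 to 72.8 CPM with Smyd3 ASO. Macrophage and neutrophil markers were at 140.2 to 342 CPM with control ASO and 263 to 456 CPM with Smyd3 ASO, and leukocyte and lymphocyte markers at 12.3 to 23.9 and 19.9 to 30.6 CPM. Of the markers that passed the filter, 4 of 7 hepatocyte and 3 of 10 endothelial and stellate markers were lower with Smyd3 ASO than with control ASO, where 13.3% of all genes tested were higher and 12.9% lower. In the same comparison 1 of 6 erythroid markers was higher and 3 lower, 1 of 4 bile duct markers higher and 2 lower, and 2 of 9 macrophage and neutrophil and 2 of 4 leukocyte markers higher. With control ASO over untreated, 3 of 4 bile duct markers were higher, and 3 of 7 hepatocyte and 3 of 6 erythroid markers lower, beside 23.7% of all genes higher and 22.2% lower. The single marker at 0 in a whole group was Ly6g, of neutrophils, at day 133. In a bulk sample, fewer cells of a type and less RNA per cell cannot be told apart.

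Promoters are shown for 6 genes because the mitotic and the pre-mitotic genes differ in the letters found there. Whether these letters go with the levels was not tested. The windows run from 250 bases before to 50 after each RefSeq start (build GRCm38.p6), and 44 of the 54 genes have 1 or more. Foxm1, Kif20a, Stmn1, Ccna2, Pbk, Mcm4, Tpx2, Aurkb, Ccne2 and Gins2 were not matched. Searched on both strands, the cell cycle genes homology region (CHR, TTTGAA), through which DREAM and MuvB complexes bind, was in 18 of 24 windows of 22 mitotic genes (75%). It was in 4 of 25 windows of 22 pre-mitotic genes (16%) and in 17.9% of the 32851 windows of all genes. An E2F word (TTTCCCGC, TTTCGCGC, TTTGCCGC or TTTGGCGC) was in 1 of 24 mitotic windows (4.17%), 10 of 25 pre-mitotic windows (40%) and 2.26% of all windows. CCAAT, the core of the NF-Y binding site, was in 21 mitotic windows (87.5%), 17 pre-mitotic windows (68%) and 37.4% of all windows. All 18 mitotic windows with the CHR letters also held CCAAT, a pair found in 6.95% of all windows. A match is a description of letters and not of a bound site. The 200 bases before the start are printed 5′ to 3′ on the gene's strand, with the CHR, CCAAT and E2F letters, read on either strand, in capitals and overlapping words run together. The windows are chr4:118437344-118437543 (minus strand) for Cdc20, chr11:99024190-99024389 (minus) for Top2a, chr1:128359706-128359905 (minus) for Mcm6, chr8:75109309-75109508 (plus) for Mcm5, chr2:5012792-5012991 (minus) for Mcm10 and chr5:30073626-30073825 (minus) for Tyms.
Cdc20: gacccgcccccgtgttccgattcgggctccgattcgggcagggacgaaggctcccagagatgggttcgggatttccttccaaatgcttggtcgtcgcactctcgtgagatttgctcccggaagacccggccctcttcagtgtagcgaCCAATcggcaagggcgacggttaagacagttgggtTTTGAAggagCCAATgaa
Top2a: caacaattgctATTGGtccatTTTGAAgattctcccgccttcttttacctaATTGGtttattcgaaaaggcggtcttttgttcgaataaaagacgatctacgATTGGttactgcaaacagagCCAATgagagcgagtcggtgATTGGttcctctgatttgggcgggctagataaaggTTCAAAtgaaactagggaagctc
Mcm6: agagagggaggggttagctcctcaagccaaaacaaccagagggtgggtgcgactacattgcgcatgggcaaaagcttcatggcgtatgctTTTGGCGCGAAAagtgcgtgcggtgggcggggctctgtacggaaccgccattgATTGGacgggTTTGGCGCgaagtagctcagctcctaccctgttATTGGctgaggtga
Mcm5: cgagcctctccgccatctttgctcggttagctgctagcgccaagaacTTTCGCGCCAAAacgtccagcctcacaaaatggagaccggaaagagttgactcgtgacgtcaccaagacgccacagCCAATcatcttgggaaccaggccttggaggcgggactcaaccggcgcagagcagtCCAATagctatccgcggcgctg
Mcm10: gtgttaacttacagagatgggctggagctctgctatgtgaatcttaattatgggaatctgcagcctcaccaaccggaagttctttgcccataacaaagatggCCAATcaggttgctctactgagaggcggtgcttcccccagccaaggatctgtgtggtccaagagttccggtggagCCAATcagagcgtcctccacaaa
Tyms: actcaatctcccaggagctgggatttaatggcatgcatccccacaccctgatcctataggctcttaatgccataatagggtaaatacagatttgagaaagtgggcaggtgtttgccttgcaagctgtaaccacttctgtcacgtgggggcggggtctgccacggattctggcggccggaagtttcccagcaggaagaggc
The Cdc20 and Top2a windows hold the CHR and CCAAT letters close to the start. The Mcm6 and Mcm5 windows hold E2F words, the Mcm10 window holds CCAAT with neither of the other words, and none of the 3 is in the Tyms window. No match says only that those letters are absent from the window searched.

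As a group, the mitotic transcripts were lowest in the day-133 DEN livers and highest in the DEN livers with control ASO, whereas the group means of the helicase subunits Mcm2 to Mcm7 differed less. The 29 mitotic genes summed to 70.2, 67.3, 27.9, 75.3 and 91.6 CPM in the 5 untreated mice and to 30.9, 51.1, 26.4 and 43.3 CPM in the 4 day-133 mice. With control ASO the lowest, median and highest of the 6 mice were 72.7, 115 and 144 CPM, and with Smyd3 ASO they were 45.4, 80.5 and 126 CPM. The third untreated mouse was the lowest of its group. The control-ASO mice all lay above the day-133 mice but overlapped the untreated mice, and the Smyd3-ASO mice overlapped all 3 other groups. Mcm2 to Mcm7 summed to 27.9, 22.5, 17.1, 26.6 and 50.7 CPM in untreated mice, 16.2, 16.1, 20.6 and 18.5 CPM at day 133, 20.7, 21.8 and 28.2 CPM (lowest, median and highest) with control ASO and 22.4, 24.8 and 31.2 CPM with Smyd3 ASO. The last untreated mouse stood above all others for this sum. On library totals the mitotic means were 44.4, 37.7, 131 and 103 CPM in untreated, day-133, control-ASO and Smyd3-ASO livers. The day-133 mice (26.1 to 51.5 CPM) then lay within the untreated range (15.8 to 56.8 CPM). The Mcm2 to Mcm7 means were 19.1, 17.7, 27.2 and 31.9 CPM in the same order. There the untreated mean was below both ASO groups, and the last untreated mouse was no longer the highest. Dividing the summed mitotic counts by the summed Mcm2 to Mcm7 counts of the same mouse removes the scaling. This ratio was 2.51, 2.99, 1.63, 2.84 and 1.81 in untreated mice and 1.91, 3.17, 1.28 and 2.34 at day 133. It was 6.95, 5.30, 4.07, 3.35, 4.61 and 5.00 in the control-ASO mice and 4.80, 4.07, 2.01, 3.38, 1.98 and 2.67 in the Smyd3-ASO mice. Every control-ASO mouse thus lay above every untreated and every day-133 mouse, by 4.88 ± 1.23 (SD, n = 6) against 2.35 ± 0.610 (n = 5) and 2.17 ± 0.793 (n = 4), while the Smyd3-ASO mice, at 3.15 ± 1.14 (n = 6), overlapped all 3 groups. Without Stmn1, the most abundant mitotic gene, the ratio ran from 2.52 to 5.69 with control ASO and from 1.31 to 2.53 in untreated livers. The lowest control-ASO mouse, mouse 4, then lay just below the highest untreated mouse, so these groups overlapped. The sums are descriptions and carry no test.

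**Figure D1:**
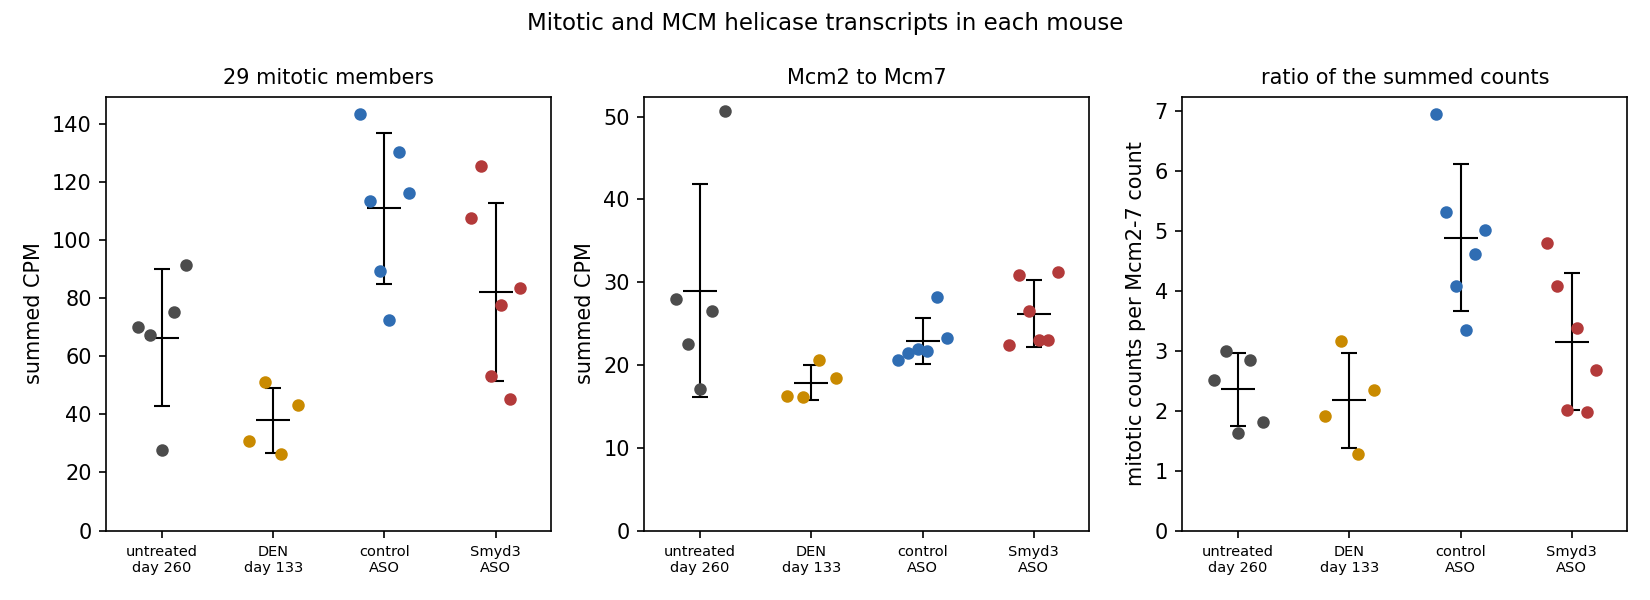
Summed CPM of the 29 mitotic genes (left), summed CPM of Mcm2 to Mcm7 (middle) and the ratio of their summed counts (right) for each mouse (points) in the 4 groups, with the mean and SD (bars). The 6 control-ASO ratios, from 3.35 to 6.95, lie above all untreated and day-133 ratios, and the Smyd3-ASO ratios run from 1.98 to 4.80.

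The fits over 15297 genes held 48 of the 54, those with enough counts to be kept. The filter ran over all 4 groups, so a gene could be kept for its counts in the group where it was high. Counts of estimates in a direction cover only the kept genes and can lean toward that group. These were 24 mitotic and 24 pre-mitotic genes. A gene was called at an adjusted p under 0.05 (edgeR's quasi-likelihood test with Benjamini-Hochberg adjustment over all genes tested, two-sided), and each comparison was fitted on its own mice. The p-values measure the spread between these mice. Control ASO over untreated called 11 of the 48 genes higher and 8 lower, where 23.7% of all genes tested were higher and 22.2% lower (45.9% in either direction). The direction split by role. All 11 higher genes were mitotic, and all 8 lower genes were pre-mitotic. These are 45.8% of the mitotic and 33.3% of the pre-mitotic genes, beside 45.9% of all genes called in either direction. The median log2 change was 0.88 over the 24 mitotic genes, -0.16 over the 24 pre-mitotic genes and 0.06 over all genes tested. With library totals in place of TMM, 28 genes were higher (19 mitotic and 9 pre-mitotic) and 3 pre-mitotic genes lower, so the split by role did not hold there. On that scale the mitotic median of 1.72 stood against 0.66 for Mcm2 to Mcm7 and 0.90 for all genes. The 8 lower calls fell to 5 without untreated mouse 1 or 5, or without control-ASO mouse 2 or 4.

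Control ASO over the day-133 DEN livers gave the most calls, 19 higher and 3 lower, against 14.4% and 12.6% of all genes tested (27% in either direction). Of the higher genes 16 were mitotic, and all 24 mitotic estimates were above 0, with a median log2 change of 1.80 against 0.09 for the 24 pre-mitotic genes. The 3 lower genes were E2f8, Mcm10 and Pcna, all pre-mitotic. With library totals 24 genes were higher and 2 lower. Smyd3 ASO over the day-133 livers called 10 higher, 9 of them mitotic, and 2 lower, against 13.1% and 11.7% of all genes tested (24.8% in either direction), and the mitotic median was 1.25. With library totals 17 genes were higher, and with limma voom 2, 1 of them mitotic. The higher calls fell to 5 without day-133 mouse 1 or 4 and to 6 without day-133 mouse 3 or Smyd3-ASO mouse 2.

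In DEN livers at day 133 over untreated livers, 14 of the 48 genes were lower and 0 higher, against 16.6% and 15.1% of all genes tested (31.6% in either direction). The count of higher genes was also 0 at an unadjusted p under 0.05, where 20.7% of all genes were higher, and 0 with DESeq2 and with limma voom. Of the lower genes 8 were mitotic, and the mitotic median was -1.34 against -0.32 for the pre-mitotic genes. With limma voom 8 genes were lower. On library totals 4 genes were higher and 4 lower, while the mitotic median stayed below that of all genes, at -0.77 against 0.59. The lower calls fell to 7 without day-133 mouse 1 or 4.

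Smyd3 ASO over control ASO called 3 genes higher (E2f1, Mcm4 and Pcna) and 4 lower (Cdc20, Tpx2, E2f2 and Tk1), against 13.3% and 12.9% of all genes tested (26.1% in either direction). Few mitotic genes passed the test, but 21 of the 24 mitotic estimates were below 0. Their median was -0.62, where the pre-mitotic median was -0.03 and 7533 of the 15297 genes had an estimate below 0. At an unadjusted p under 0.05, 10 of the 24 mitotic genes were lower and 0 higher, beside 19.3% and 20.1% of all genes tested. DESeq2 called 5 mitotic genes lower, limma voom 4, and neither called one higher. DESeq2 called 7 of the 48 lower in all. On library totals 3 genes were higher and 1 lower, Tk1, and with no filter 1 was lower. The 4 lower calls became 2 without control-ASO mouse 2 or 5 or Smyd3-ASO mouse 3, and 7 without control-ASO mouse 4 or Smyd3-ASO mouse 2. Smyd3 ASO over untreated called 3 higher and 7 lower, against 24.4% and 23.2% of all genes tested (47.6% in either direction), with a mitotic median of 0.33. Of the mitotic genes 2 were higher and 2 lower (16.7% called), and of the pre-mitotic genes 1 was higher and 5 lower. The lower mitotic genes were Cdc20 and Pbk, the Pbk call at a log2 change of -1.06 (adjusted p = 0.0445) and lost in 13 of 18 settings. On library totals 20 of the 48 genes were higher and 4 lower. Without untreated mouse 5 there were 5 higher and 4 lower, and without Smyd3-ASO mouse 5 there were 5 higher. The comparisons with untreated livers share those 5 mice, and those with day-133 livers share those 4.

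**Figure D2:**
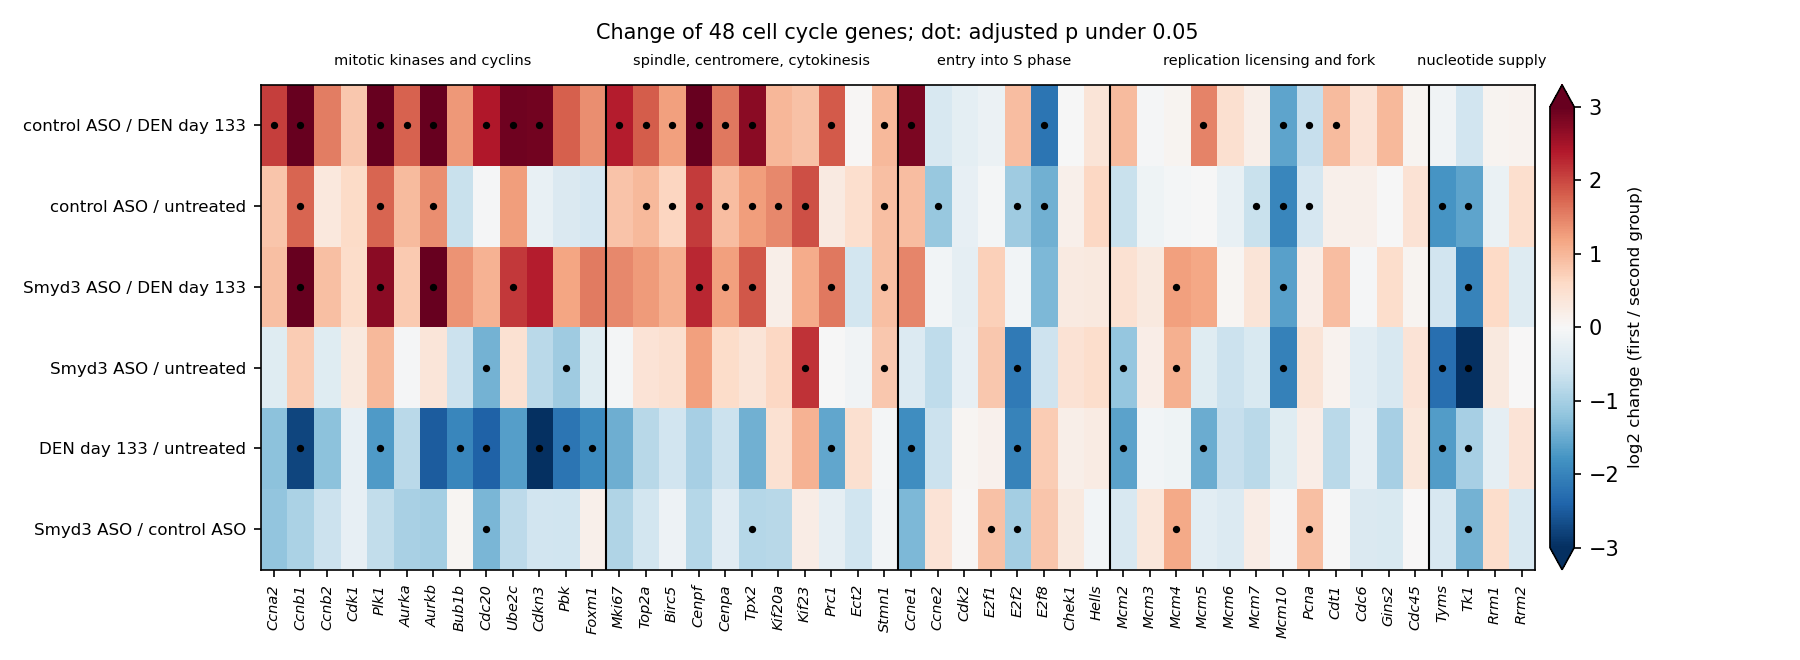
Log2 change of the 48 genes that passed the filter (columns, by role) in the 6 comparisons (rows), from blue (lower in the first group) to red (higher), with a dot where the adjusted p was under 0.05. Red cells and dots lie in the mitotic columns of control ASO over day 133 (16 mitotic genes higher) and control ASO over untreated (11), and blue cells fill most mitotic columns of Smyd3 ASO over control ASO, with 2 dots.

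Among the mitotic kinases and cyclins, Ccnb1 and Plk1 rose in the control-ASO livers over both other references. Ccnb1 encodes cyclin B1, the activator of Cdk1 at mitotic entry. It was at 0.860, 0.593, 0.468, 0.435 and 1.34 CPM in the untreated mice and 0.210, 0.170, 0 and 0 CPM at day 133, where the 4 mice together held 2 counts. The lowest, median and highest values were 1.38, 2.56 and 3.82 CPM with control ASO and 0.312, 1.41 and 2.21 CPM with Smyd3 ASO. No control-ASO mouse overlapped an untreated mouse, and the log2 change was 1.74 (SE 0.37, adjusted p = 0.0016). Against the 2 day-133 counts, the pooled level was higher with control ASO by 27.8-fold (95% exact interval 7.59 to 231) and in untreated livers by 8.09-fold (95% exact interval 2.05 to 69.9), intervals that cover counting error only. Smyd3 ASO over control ASO gave a log2 change of -0.95 (SE 0.39, adjusted p = 0.0864), which missed the threshold.

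Plk1, the kinase that drives spindle assembly and mitotic exit, followed the same order. It was at 2.26, 2.73, 0.312, 3.05 and 3.08 CPM in untreated mice and 0.210, 0.509, 1.11 and 0.948 CPM at day 133. With control ASO its lowest, median and highest values were 5.16, 7.39 and 11.7 CPM, and with Smyd3 ASO 1.69, 3.56 and 9.13 CPM. All control-ASO mice were above all untreated and day-133 mice. The log2 change was 1.74 (SE 0.36, adjusted p = 0.00139) over untreated and 3.45 (SE 0.38, adjusted p = 4.23e-05) over day 133. For day 133 over untreated, where the groups overlapped, the log2 change was -1.69 (SE 0.58, adjusted p = 0.0357), a call lost in 10 of 16 alternative settings, and it was -0.75 (SE 0.37, adjusted p = 0.15) for Smyd3 ASO over control ASO. The third untreated mouse, at 0.312 CPM, lay well below the other 4 for Plk1 and was also low for Ccna2 and Ube2c, at 0.156 CPM each.

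Cdc20, the activator of the anaphase-promoting complex, had another order, with close means in untreated (9.05 ± 4.04 CPM, SD, n = 5) and control-ASO livers (8.94 ± 3.62 CPM, n = 6). Its values were 10.1, 12.9, 2.18, 10.2 and 9.90 CPM in untreated mice and 2.1, 2.04, 0.887 and 1.58 CPM at day 133, and 4.88, 7.47 and 14.2 CPM (lowest, median and highest) with control ASO. Smyd3-ASO livers were lower, at 1.03, 3.91 and 5.81 CPM, and overlapped the control-ASO mice only in part. The log2 change was -1.36 (SE 0.40, adjusted p = 0.0237) for Smyd3 ASO over control ASO, -2.43 (SE 0.45, adjusted p = 0.00159) for day 133 over untreated and -0.03 (SE 0.37, adjusted p = 0.955) for control ASO over untreated. Its call for Smyd3 ASO over control ASO was lost with no filter on low counts, with library totals, with the replicate block and without control-ASO mouse 5, with an adjusted p of at most 0.0549. Smyd3 ASO over untreated gave a log2 change of -1.41 (SE 0.48, adjusted p = 0.0275), a call lost in 7 of 18 settings. Cdk1, the kinase itself, passed in none of the 6 comparisons, and its smallest adjusted p was 0.0948. It was at 7.84, 5.57, 2.18, 7.98 and 7.09 CPM in untreated mice, 5.05, 6.62, 2.44 and 6.48 CPM at day 133, and 5.41, 8.61 and 15.6 CPM (lowest, median and highest) with control ASO and 3.75, 7.80 and 11.1 CPM with Smyd3 ASO, with all groups overlapping.

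Of the other mitotic regulators, Aurkb, the kinase of the chromosomal passenger complex, was higher with control ASO than in untreated livers by a log2 change of 1.40 (SE 0.52, adjusted p = 0.0406), a call lost in 8 of 18 settings. It had 1 count in all day-133 mice together. Ube2c, the ubiquitin-conjugating enzyme of the anaphase-promoting complex, rose over day 133 by a log2 change of 2.91 (SE 0.56, adjusted p = 0.00196) with control ASO and 2.13 (SE 0.53, adjusted p = 0.0123) with Smyd3 ASO. Tnnc2, a muscle troponin gene that shares 592 exon bases with Ube2c on the opposite strand, had means of 43.8 CPM with control ASO and 0.248 CPM with Smyd3 ASO and was at 0 at day 133. Tnnc2 did not pass the filter, so its control-ASO mean can rest on few mice. Its part in the Ube2c counts was not tested. Ccna2, encoding cyclin A2, rose over day 133 by a log2 change of 2.06 (SE 0.49, adjusted p = 0.00657) with control ASO, and Aurka, the centrosome kinase, by 1.77 (SE 0.52, adjusted p = 0.0218), the Aurka call lost in 5 of 17 settings. At day 133, Bub1b, a spindle checkpoint kinase, was lower than in untreated livers by a log2 change of -1.95 (adjusted p = 0.0273), Pbk, a mitotic kinase, by -2.19 (adjusted p = 0.0215), and Foxm1, the transcription factor of mitotic genes, by -1.88 (adjusted p = 0.0338). These calls were lost in 5, 5 and 9 of 16 settings. Foxm1 did not pass for control ASO over untreated, at a log2 change of -0.49 (adjusted p = 0.399), nor for Smyd3 ASO over control ASO, at 0.16 (adjusted p = 0.785). Ccnb2, encoding cyclin B2, passed in none of the 6 comparisons.

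The genes of spindle, centromere, chromosomes and cytokinesis were mostly higher in control-ASO livers. All 11 that passed the filter had estimates above 0 over untreated, 8 of them past the threshold, where 52.8% of all genes had estimates above 0 and 23.7% were called higher. These counts leave out the genes of this role below the filter. Of those, Nusap1 had means of 0.571 CPM with control ASO and 0.643 CPM untreated, and Cenpe 0.411 and 0.419 CPM. Kif11 had means of 0.608 and 0.366 CPM in the same order. Mki67, which encodes the proliferation antigen Ki-67, was at 0.860, 0.830, 0.624, 1.74 and 1.34 CPM in untreated mice and 0.421, 0.170, 0.444 and 0.474 CPM at day 133. Its lowest, median and highest values were 0.925, 2.06 and 2.60 CPM with control ASO and 0.437, 1.09 and 1.59 CPM with Smyd3 ASO. The control-ASO and day-133 mice did not overlap, and the log2 change between them was 2.35 (SE 0.46, adjusted p = 0.00201). Over untreated the log2 change was 0.86 (SE 0.34, adjusted p = 0.0505) and for Smyd3 ASO over control ASO -0.91 (SE 0.33, adjusted p = 0.0568), both above 0.05 and so not called.

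Top2a, the topoisomerase that untangles sister chromatids, was at 2.79, 3.79, 0.779, 2.90 and 4.15 CPM in untreated mice and 0.631, 1.70, 1.11 and 2.84 CPM at day 133. With control ASO it was at 4.28, 5.60 and 7.84 CPM (lowest, median and highest) and with Smyd3 ASO at 1.87, 4.04 and 5.94 CPM. The control-ASO mice were above all untreated and all day-133 mice, by log2 changes of 0.98 (SE 0.30, adjusted p = 0.016) and 1.81 (SE 0.34, adjusted p = 0.00153). Cenpf, a kinetochore protein, was at 0.537, 0.237, 0.779, 0.145 and 0.267 CPM in untreated mice, 0.210, 0.170, 0.222 and 0.158 CPM at day 133 and 0.755, 1.60 and 2.86 CPM (lowest, median and highest) with control ASO. The Smyd3-ASO values were 0.375, 0.959 and 1.56 CPM. Its log2 change of 2.1 (SE 0.46, adjusted p = 0.00203) over untreated was the largest of the mitotic genes in that comparison, although its lowest control-ASO mouse fell just below its highest untreated mouse. Cenpa, the centromeric histone, was higher in control-ASO livers (12.7 ± 2.54 CPM, SD, n = 6) than in untreated (6.69 ± 1.10, n = 5) and day-133 livers (4.19 ± 1.62, n = 4). The log2 changes were 0.92 (SE 0.18, adjusted p = 0.000747) and 1.58 (SE 0.24, adjusted p = 0.000424), with no overlap in either. The Cenpa values ranged over 5.08 to 7.82 CPM in untreated livers, 2.88 to 6.45 CPM at day 133 and 7.91 to 14.9 CPM with control ASO. With Smyd3 ASO they ranged over 5.20 to 15.8 CPM.

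Tpx2, which targets Aurora A to the spindle, rose with control ASO over untreated livers by a log2 change of 1.25 (SE 0.30, adjusted p = 0.00385) and was lower with Smyd3 ASO than with control ASO by -0.85 (SE 0.29, adjusted p = 0.0416). The first call was lost in 1 of 18 alternative settings and the second in 12 of 19. Birc5, which encodes survivin, was at 6.77, 5.81, 2.18, 5.23 and 7.49 CPM in untreated mice, 2.74, 4.75, 3.77 and 3.48 CPM at day 133 and 6.06, 9.01 and 11 CPM (lowest, median and highest) with control ASO. With control ASO it rose by a log2 change of 0.65 (SE 0.25, adjusted p = 0.0458) over untreated and 1.23 (SE 0.23, adjusted p = 0.00139) over day 133. The first of these was lost in 10 of 18 settings. Stmn1, a microtubule destabiliser and the most abundant of the mitotic genes, was at 11.7 ± 5.22, 11.1 ± 2.95, 21.8 ± 3.90 and 20.8 ± 6.90 CPM in untreated, day-133, control-ASO and Smyd3-ASO livers. It rose over untreated by a log2 change of 0.90 (SE 0.25, adjusted p = 0.00902) with control ASO and 0.81 (SE 0.30, adjusted p = 0.0382) with Smyd3 ASO, the second lost in 9 of 18 settings. Kif23, a kinesin of the central spindle, was the other mitotic gene called higher in both ASO groups over untreated, by a log2 change of 1.94 (SE 0.48, adjusted p = 0.00415) and 2.16 (SE 0.57, adjusted p = 0.00698), the second lost in 1 of 18 settings. At day 133 its log2 estimate over untreated was 1.05 (adjusted p = 0.232). Kif20a, a cytokinesis kinesin, rose over untreated with control ASO by a log2 change of 1.45 (SE 0.51, adjusted p = 0.0304), a call lost in 9 of 18 settings, and Prc1, which bundles the central spindle, rose over day 133 by 1.83 (adjusted p = 0.0127) with control ASO and 1.57 (adjusted p = 0.0407) with Smyd3 ASO, the second lost in 8 of 17 settings. Ect2, a cytokinesis gene, passed in none of the 6.

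**Figure D3:**
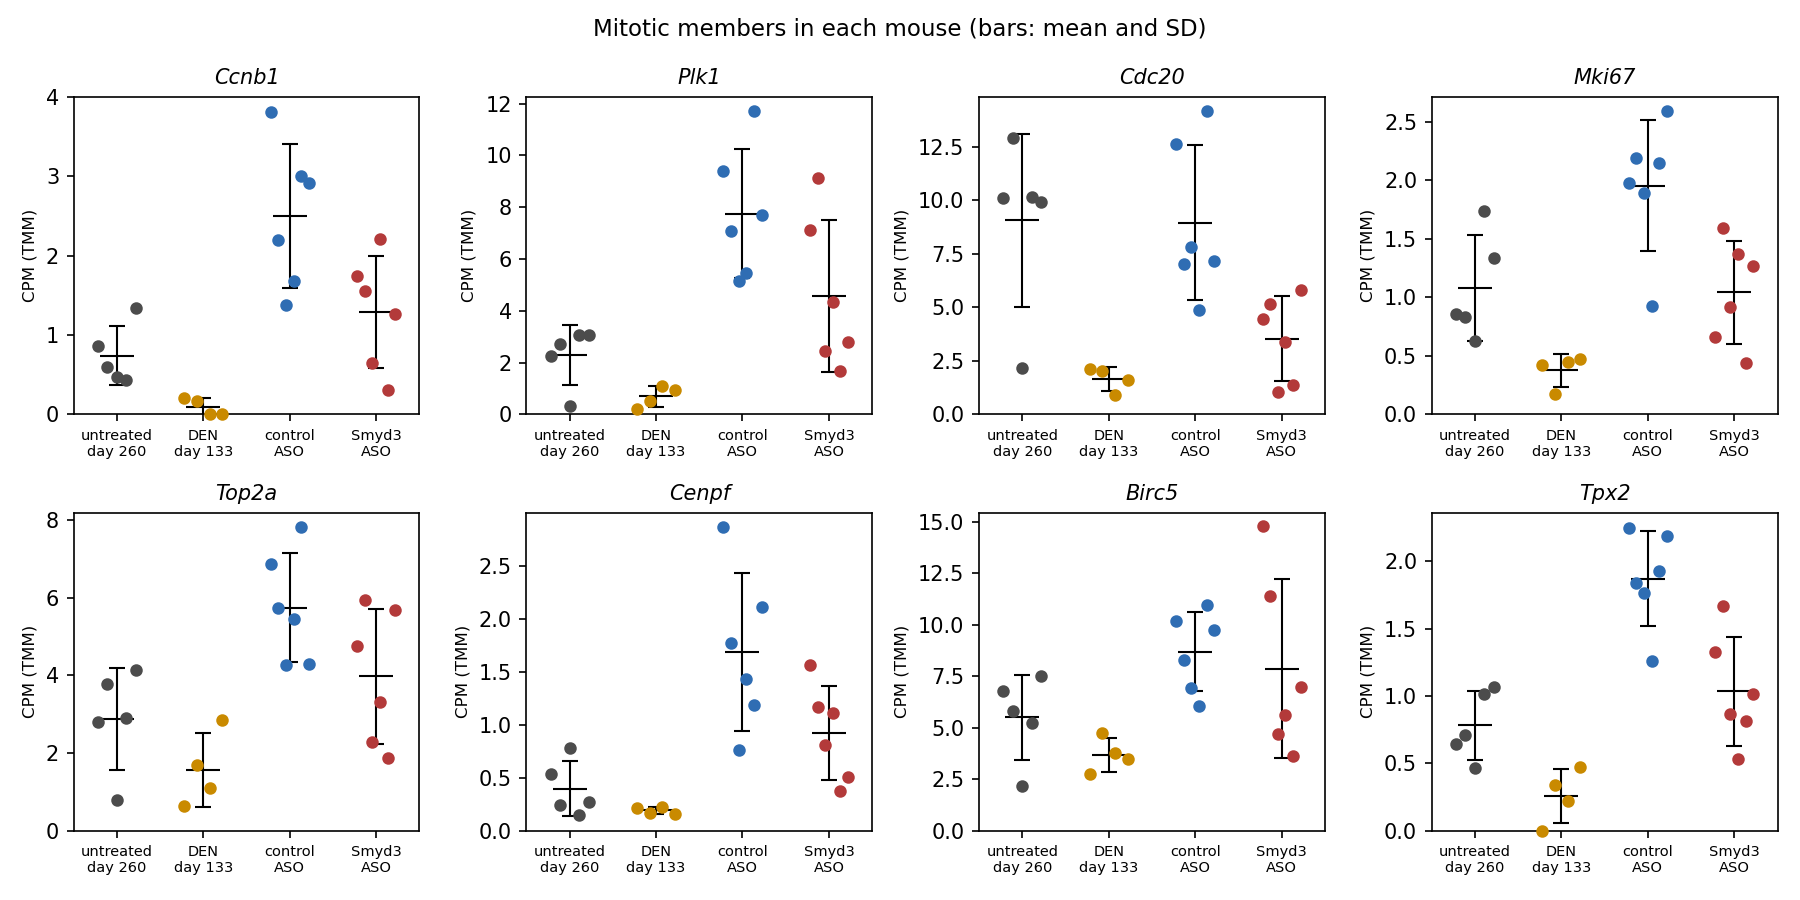
CPM of 8 mitotic genes in each mouse (points) of the 4 groups, with the mean and SD (bars) and a separate linear axis from 0 for each gene. The day-133 mean is the lowest for all 8 genes, the control-ASO mean is the highest for all but Cdc20, and the Smyd3-ASO mice spread widely, as for Plk1 (1.69 to 9.13 CPM).

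The spread among Smyd3-ASO mice was shared by several genes. Mice 1 and 2 of that group had the highest mitotic sums (108 and 126 CPM) and mice 3 and 5 the lowest (53.4 and 45.4 CPM). Birc5 was at 14.8, 11.4, 4.71, 5.62, 3.62 and 6.95 CPM, Plk1 at 7.10, 9.13, 2.44, 4.34, 1.69 and 2.78 CPM and E2f1 at 13.7, 14.3, 6.33, 6.95, 5.37 and 6.57 CPM in Smyd3-ASO mice 1 to 6. The first 2 mice were highest for all 3 genes. The top-10 share of counts was lowest in these 2 mice (9.46 and 12%), and their TMM factors were the 2 largest of all (1.35 and 1.42). The part of composition in this spread was not tested.

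Entry into S phase showed no common direction. E2f1, an activator E2F, was higher in Smyd3-ASO livers than in control-ASO livers. It was at 4.51, 2.84, 3.12, 5.23 and 9.23 CPM in untreated mice, 3.79, 3.73, 6.43 and 7.58 CPM at day 133 and 3.65, 4.97 and 5.30 CPM (lowest, median and highest) with control ASO. The Smyd3-ASO values were 5.37, 6.76 and 14.3 CPM, all above the control-ASO mice, though the nearest pair differed by little. The log2 change was 0.88 (SE 0.25, adjusted p = 0.02), lost with the replicate block (adjusted p = 0.0503). Another activator, E2f2, moved the other way. It was highest in untreated livers (2.26, 3.79, 2.49, 2.47 and 5.22 CPM) and lower at day 133 (0.631, 1.70, 0.887 and 0 CPM), with control ASO (0.893, 1.31 and 2.94 CPM, lowest, median and highest) and with Smyd3 ASO (0.576, 0.614 and 1.14 CPM). The log2 changes over untreated were -2.00 (SE 0.56, adjusted p = 0.014), -1.08 (SE 0.33, adjusted p = 0.0162) and -2.12 (SE 0.32, adjusted p = 0.000137), the control-ASO call lost in 4 of 18 settings, and no Smyd3-ASO mouse overlapped an untreated mouse. For Smyd3 ASO over control ASO the log2 change was -1.03 (SE 0.33, adjusted p = 0.0354), a call lost in 10 of 19 settings.

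E2f8, an atypical E2F that represses E2F targets and is linked to hepatocyte polyploidy, was at 1.72, 1.90, 4.36, 1.31 and 4.01 CPM in untreated mice and 2.32, 2.54, 2.44 and 10.1 CPM at day 133. With control ASO it fell to 0.126, 0.997 and 1.35 CPM (lowest, median and highest), and with Smyd3 ASO it was at 0.361, 1.92 and 2.98 CPM. The control-ASO log2 change was -1.44 (SE 0.43, adjusted p = 0.0129) over untreated and -2.18 (SE 0.50, adjusted p = 0.00576) over day 133. The control-ASO mice did not overlap the day-133 mice. The first call was lost with library totals and with the replicate block, and the second without day-133 mouse 4. Gm2788, a noncoding gene that shares 610 exon bases with E2f8 on the opposite strand, went from 30.2 to 8.83 CPM between untreated and control-ASO livers, a log2 change of -1.75 (adjusted p = 6.52e-05). Its part in the E2f8 counts was not tested.

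The G1/S cyclin Ccne1 varied widely within groups. It was at 1.07, 2.73, 2.18, 1.45 and 3.08 CPM in untreated mice, 1.26, 0.679, 0 and 0.316 CPM at day 133, 1.02, 1.63, 4.03, 7.65, 5.05 and 4.95 CPM with control ASO and 0.241, 0.389, 4.01, 3.59, 0.749 and 0.253 CPM with Smyd3 ASO. Mice 1 and 2 of the Smyd3-ASO group, the highest for mitotic genes, were with mouse 6 the lowest for Ccne1, and control-ASO mouse 4, low for mitotic genes, was the highest of all. Control ASO over day 133 gave a log2 change of 2.82 (SE 0.74, adjusted p = 0.0158) and day 133 over untreated -1.86 (SE 0.59, adjusted p = 0.0254), lost in 3 of 17 and 7 of 16 settings, while Smyd3 ASO over control ASO gave -1.34 (SE 0.71, adjusted p = 0.183). Ccne2, the other cyclin E, was at 1.72, 1.78, 1.56, 2.03 and 0.802 CPM in untreated mice, 1.26, 0.679, 0.222 and 1.74 CPM at day 133, and 0.168, 0.816 and 1.16 CPM (lowest, median and highest) with control ASO and 0.217, 0.692 and 1.79 CPM with Smyd3 ASO. It was lower with control ASO than in untreated livers by a log2 change of -1.14 (SE 0.43, adjusted p = 0.0412), a call lost in 12 of 18 settings. Their partner kinase Cdk2 had means of 8.29, 8.57, 6.98 and 7.16 CPM in untreated, day-133, control-ASO and Smyd3-ASO livers, and passed in no comparison. The checkpoint kinase Chek1 and the chromatin remodeler Hells passed in none either.

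Among licensing and fork genes the helicase subunit Mcm4 and the clamp Pcna were higher in Smyd3-ASO than in control-ASO livers. Mcm4 was at 2.04, 1.90, 3.74, 3.05 and 6.55 CPM in untreated mice, 3.16, 2.21, 2.22 and 4.74 CPM at day 133 and 2.45, 3.26 and 4.21 CPM (lowest, median and highest) with control ASO. It was at 4.75, 7.31 and 10.1 CPM with Smyd3 ASO, where every mouse was above every control-ASO mouse. The log2 change was 1.15 (SE 0.20, adjusted p = 0.00129) over control ASO, 1.07 (SE 0.31, adjusted p = 0.0128) over untreated and 1.22 (SE 0.29, adjusted p = 0.0103) over day 133. The first of these calls was kept in all 19 settings run. None of the other 5 subunits was called there. Their estimates for Smyd3 ASO over control ASO were log2 changes of -0.49 (adjusted p = 0.183) for Mcm2, 0.34 (adjusted p = 0.365) for Mcm3, -0.33 (adjusted p = 0.443) for Mcm5, -0.40 (adjusted p = 0.169) for Mcm6 and 0.22 (adjusted p = 0.345) for Mcm7.

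Pcna was at 21.3, 14.5, 24.0, 22.9 and 30.8 CPM in untreated mice and 21.5, 32.6, 19.5 and 30.3 CPM at day 133. With control ASO it was at 11.7, 15.6 and 21.7 CPM (lowest, median and highest), and with Smyd3 ASO at 27.6, 28.9 and 36.4 CPM, with no overlap between the ASO groups. The log2 change between them was 0.91 (SE 0.14, adjusted p = 0.000571), kept in all 19 settings. The control-ASO mean was the lowest of the 4 groups, with a log2 change of -0.50 (SE 0.18, adjusted p = 0.0371) against untreated and -0.70 (SE 0.18, adjusted p = 0.011) against day 133, while the mitotic sum was highest there. The first of these was lost in 11 of 18 settings and with library totals turned to a log2 change of 0.37 (adjusted p = 0.106). The second was lost with library totals and without day-133 mouse 2.

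Mcm2 and Mcm5 were lower at day 133 than in untreated livers, by a log2 change of -1.60 (SE 0.45, adjusted p = 0.0143) and -1.48 (SE 0.50, adjusted p = 0.0349), calls lost in 3 and 8 of 16 settings. Mcm7 was lower with control ASO than untreated by a log2 change of -0.66 (SE 0.24, adjusted p = 0.0389), lost in 8 of 18. Mcm2 was at 3.01, 2.84, 2.03, 2.61 and 8.02 CPM in untreated mice and 1.47, 0.848, 0.887 and 1.58 CPM at day 133, with the last untreated mouse far above the rest. With ASO it was at 1.64, 2.33 and 3.16 CPM (lowest, median and highest, control) and 1.06, 1.70 and 2.31 CPM (Smyd3), and the second group was lower than untreated by a log2 change of -1.17 (SE 0.36, adjusted p = 0.0166), a call lost without untreated mouse 5, with library totals and after thinning. Mcm6 was at 8.27, 5.69, 2.18, 9.0 and 11 CPM untreated, 3.37, 3.73, 7.54 and 3.48 CPM at day 133, 4.98, 5.92 and 8.70 CPM with control ASO and 3.23, 4.46 and 6.70 CPM with Smyd3 ASO (lowest, median and highest), and passed in none of the 6. Cdt1, which loads the helicase, was higher with control ASO than at day 133 by a log2 change of 0.95 (adjusted p = 0.0287), a call lost in 5 of 17 settings, and the origin factors Cdc6, Gins2 and Cdc45 passed in none.

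Mcm10, which joins the helicase to the polymerase, was more abundant than the other licensing and fork genes. It was at 137, 157, 169, 143 and 75.3 CPM in the untreated mice and 96.2, 98, 94.3 and 132 CPM at day 133. With control ASO its lowest, median and highest values were 22.6, 36.1 and 46.1 CPM, and with Smyd3 ASO 20.2, 33.9 and 48.2 CPM. Both ASO groups lay below both groups without ASO and did not overlap them, and the ASO groups overlapped each other. The log2 changes were -1.97 (SE 0.24, adjusted p = 2.42e-05) and -2.02 (SE 0.24, adjusted p = 1.89e-05) over untreated, -1.59 (SE 0.21, adjusted p = 0.000169) and -1.63 (SE 0.21, adjusted p = 0.000507) over day 133, and -0.04 (SE 0.22, adjusted p = 0.913) between the ASOs. Its untreated mean of 136 CPM stood beside 9.05 CPM for Mcm7, the most abundant of Mcm2 to Mcm7 there. No other annotated gene that passed the filter shares exon bases with Mcm10.

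Of the 4 nucleotide supply genes, Tyms and Tk1 were lower in DEN livers and Rrm1 and Rrm2 were not called. Tyms, thymidylate synthase, was the most abundant of the 54 in untreated livers, at 248, 232, 272, 408 and 170.3 CPM. It was at 76.6, 84.6, 79.6 and 93.4 CPM at day 133, 57.4, 64.8 and 136 CPM (lowest, median and highest) with control ASO and 34.5, 52.5 and 89.5 CPM with Smyd3 ASO. No mouse of a DEN group reached the lowest untreated mouse. The log2 changes over untreated were -1.67 (SE 0.21, adjusted p = 4.15e-05), -1.77 (SE 0.25, adjusted p = 9.44e-05) and -2.27 (SE 0.25, adjusted p = 1.32e-05) in that order, while the ASO groups differed by -0.47 (SE 0.24, adjusted p = 0.163). Tyms, Mcm10 and Tk1 fell over untreated with control ASO in all 18 settings, library totals included.

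Tk1, the S phase thymidine kinase, was highest untreated and lowest with Smyd3 ASO. It was at 57.1, 41.0, 40.8, 57.6 and 30.9 CPM in untreated mice, 20.6, 17.1, 27.5 and 25.9 CPM at day 133, 10.5, 15.4 and 20.2 CPM (lowest, median and highest) with control ASO and 3.42, 5.44 and 8.99 CPM with Smyd3 ASO. The Smyd3-ASO mice lay below all mice of the other 3 groups. The log2 change was -1.43 (SE 0.24, adjusted p = 0.00103) for Smyd3 ASO over control ASO, kept in all 19 settings, and -3.02 (SE 0.25, adjusted p = 1.28e-06) over untreated. Control ASO over untreated gave a log2 change of -1.58 (SE 0.22, adjusted p = 5.96e-05) and day 133 over untreated -0.99 (SE 0.20, adjusted p = 0.00169), the second lost with library totals. Afmid, a liver enzyme gene of tryptophan breakdown, shares 83 exon bases with Tk1 on the opposite strand. It was at 149, 68.5, 58.3 and 50.7 CPM in untreated, day-133, control-ASO and Smyd3-ASO livers. Its log2 change was -1.36 (adjusted p = 5.28e-05) for control ASO over untreated and -0.21 (adjusted p = 0.359) for Smyd3 ASO over control ASO. Whether counting used the strand is not given in the sources used here, and the part of Afmid in the Tk1 counts was not tested. The ribonucleotide reductase subunits Rrm1 and Rrm2 passed in none of the 6 comparisons. Rrm1 was at 5.37, 2.49, 3.74, 6.24 and 4.15 CPM in untreated mice, 2.95, 3.39, 4.21 and 3.95 CPM at day 133, and 3.16, 3.92 and 4.37 CPM (lowest, median and highest) with control ASO and 2.56, 5.34 and 7.88 CPM with Smyd3 ASO.

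**Figure D4:**
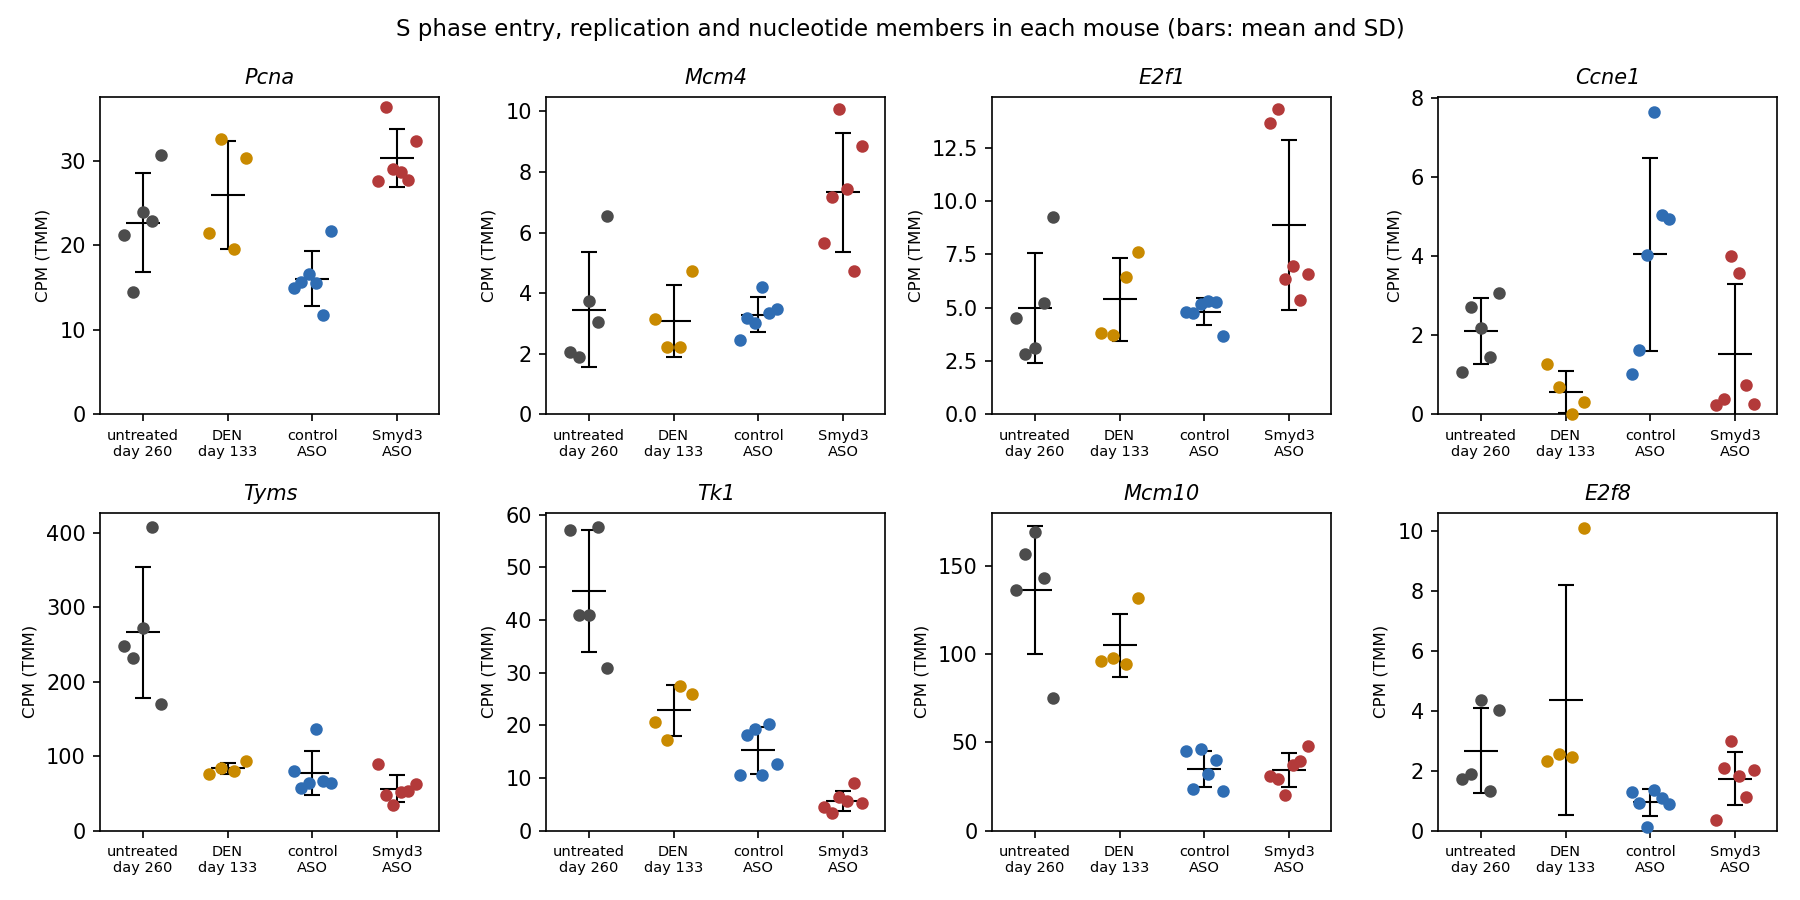
CPM of 8 genes of S phase entry, replication and nucleotide supply in each mouse (points) of the 4 groups, with the mean and SD (bars) and a separate linear axis from 0 for each gene. Pcna and Mcm4 are higher in all 6 Smyd3-ASO mice than in all 6 control-ASO mice, while Tyms, Tk1 and Mcm10 are highest in untreated mice, up to 408, 57.6 and 169 CPM.

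Exons of 17 of the 54 genes overlap those of another annotated gene, and for 10 of them the other gene codes for a protein and passed the filter. Beside Tk1, these include Cdc20 with Elovl1 (53 shared bases), Ccna2 with Exosc9 (510), Kif20a with Cdc23 (1271), Gins2 with Gse1 (2758) and Prc1 with Rccd1 (911), all on opposite strands. Reads within the shared bases of such pairs cannot be told apart without strand. Elovl1 was at 37.9, 21.8, 21.4 and 20.7 CPM in untreated, day-133, control-ASO and Smyd3-ASO livers. In the same order Cdc20 had means of 9.05, 1.65, 8.94 and 3.53 CPM. Elovl1 was lower at day 133 than untreated by a log2 change of -0.80 (adjusted p = 0.000755), where Cdc20 was also lower. Exosc9 was at 12.4 and 24.8 CPM with control and Smyd3 ASO. The part of these genes in the counts of Cdc20 and Ccna2 was not tested. Mcm7 shares bases with Ap4m1 (321) and Cops6 (64) on the opposite strand and with the microRNA genes Mir25 (84) and Mir93 (88) on its own. Mir25 was at 9, 5.14, 5.62 and 6.52 CPM in untreated, day-133, control-ASO and Smyd3-ASO livers. In the same order Mcm7 was at 9.05, 5.14, 5.77 and 6.72 CPM. Whether the same reads were counted for both was not tested.

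The 6 genes below the filter were Bub1, Melk, Cenpe, Kif11, Nusap1 and Uhrf1, and none was tested. Bub1, a checkpoint kinase, and Melk, a mitotic kinase, had 0 counts in the 4 day-133 mice together, which allows up to 0.140 CPM at 3 counts. With control ASO the pooled level of Melk was higher than at day 133 with an exact 95% lower limit of 3.00-fold, and that of Bub1 with a lower limit of 1.84-fold, for counting error only. Cenpe, a kinetochore kinesin, had 3 counts at day 133. Kif11, the kinesin that separates spindle poles, Nusap1, a spindle protein, and Uhrf1, which links replication to DNA methylation, had means of at most 0.643 CPM in any group.

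Other genes of the cycle were followed in 11 lists of 154 genes, of which 136 passed the filter. Across them control ASO over untreated called 27 higher and 22 lower, and Smyd3 ASO over control ASO 14 higher and 18 lower, shares of 36 and 23.5% beside 45.9 and 26.1% of all genes tested. The first list was the inhibitors of cyclin-dependent kinases. Cdkn1a, which encodes the p53 target p21, was at 2.21 ± 1.42 CPM in untreated livers and higher in every DEN group, at 21.9 ± 14.2 CPM at day 133, 12.4 ± 5.23 CPM with control ASO and 22 ± 11.4 CPM with Smyd3 ASO. Its log2 changes over untreated were 3.28 (SE 0.63, adjusted p = 0.00553), 2.47 (SE 0.43, adjusted p = 0.00061) and 3.27 (SE 0.53, adjusted p = 0.000437). Cdkn2b, encoding p15, was highest with control ASO. It ranged over 0 to 0.267 CPM in untreated livers, 0 to 0.790 CPM at day 133, 1.83 to 6.65 CPM with control ASO and 0 to 0.874 CPM with Smyd3 ASO. The log2 change was 4.69 (SE 0.59, adjusted p = 2.28e-05) for control ASO over untreated and -3.18 (SE 0.51, adjusted p = 0.000683) for Smyd3 ASO over control ASO. Cdkn1c, encoding p57, was also lower with Smyd3 than with control ASO, by a log2 change of -1.94 (adjusted p = 0.000515). Of the 7 inhibitors, 4 were lower in that comparison, beside 12.9% of all genes tested.

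Of the other mitotic kinesins and spindle genes, 13 of 20 passed the filter. With control ASO, 6 were higher and 1 lower over untreated (beside 23.7 and 22.2% of all genes, median log2 change 0.79), and 5 were higher over day 133 (beside 14.4%, median 1.61). Over untreated, Cep55, of the abscission bridge, changed on the log2 scale by 2.04 (adjusted p = 0.00795), the kinesin Kif15 by 1.67 (adjusted p = 0.0102) and the cytokinesis gene Anln by 1.01 (adjusted p = 0.0104). Kinetochore and spindle checkpoint genes outside the 54 gave 1 call of 12 in the same comparison over untreated (8.33%, beside 45.9% of all genes), the checkpoint gene Mad2l1 at a log2 change of -0.87 (adjusted p = 0.0244). At an unadjusted p under 0.05 the counts in this list were 2 higher and 3 lower. Spc24, another kinetochore gene, was higher with Smyd3 ASO than with control ASO by a log2 change of 1.41 (adjusted p = 0.00708), as was the checkpoint gene Bub3 by 0.38 (adjusted p = 0.0199). Condensin and cohesin had 6 higher and 1 lower of 12 with control ASO over untreated, and 1 higher and 5 lower with Smyd3 ASO over control ASO. These are 58.3 and 50% called, beside 45.9 and 26.1% of all genes tested. The cohesin subunit gene Stag1 rose by a log2 change of 0.94 (adjusted p = 2.13e-05) in the first and fell by 0.94 (adjusted p = 0.00136) in the second, while the condensin gene Ncapd2 rose by 1.32 (adjusted p = 0.000244) in the first and had an estimate of 0.09 (adjusted p = 0.779) in the second.

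In the G1 list, Cdk4 was lower in all 3 DEN groups than in untreated livers, by a log2 change of -1.29 (adjusted p = 0.00155) at day 133, -1.28 (adjusted p = 4.03e-05) with control ASO and -1.52 (adjusted p = 0.000145) with Smyd3 ASO. Ccnd1, the cyclin D1 partner of Cdk4, was higher in both ASO groups than untreated, by a log2 change of 0.89 (adjusted p = 0.00559) and 1.53 (adjusted p = 0.00248). Among the pocket proteins and DREAM or MuvB subunits, Rbl2, which encodes the p130 repressor of resting cells, went from 11.9 ± 3.17 CPM in untreated livers to 2.79 ± 0.0822, 2.24 ± 0.409 and 3.45 ± 0.519 CPM at day 133, with control ASO and with Smyd3 ASO. Its log2 changes over untreated were -2.08 (SE 0.25, adjusted p = 2.69e-05), -2.39 (SE 0.21, adjusted p = 1.17e-06) and -1.82 (SE 0.21, adjusted p = 1.85e-05). Lin9, a MuvB subunit, was higher over untreated by a log2 change of 1.07 (adjusted p = 0.00353) with control ASO. Of 20 origin and fork factors, 1 was higher and 4 lower over untreated with control ASO (25% called, beside 45.9% of all genes), Dbf4, the Cdc7 activator, at a log2 change of 1.00 (adjusted p = 0.00737) and Gins4 at -0.80 (adjusted p = 0.00136). Of the replicative polymerases, the small subunit gene Pold4 rose by 1.39 (adjusted p = 0.00162) over untreated with control ASO and fell by 1.84 (adjusted p = 0.000237) with Smyd3 ASO over control ASO, while the catalytic subunit gene Pole was lower over untreated by a log2 change of -1.49 (adjusted p = 0.00302).

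The remaining lists gave calls in both directions. Of the 15 genes of the anaphase-promoting complex and sister separation, 6 were lower with control ASO over untreated, where Anapc2 changed on the log2 scale by -0.86 (adjusted p = 0.000293), Anapc1 by -0.65 (adjusted p = 0.00109) and Cdc26 by -0.39 (adjusted p = 0.0074), and 2 were higher and 4 lower with Smyd3 ASO over control ASO. Cdc26 was among the genes called in the second comparison, at an adjusted p of 0.00442. The shares called, 40% in each, stand beside 45.9 and 26.1% of all genes tested. Of 12 checkpoint kinases and phosphatases, 4 were higher and 0 lower with control ASO over untreated (33.3% called, beside 45.9% of all genes, 23.7% higher). There Atm, the kinase of the double-strand break response, changed on the log2 scale by 1.07 (adjusted p = 0.000618), the phosphatase gene Cdc25a by 1.03 (adjusted p = 0.00556) and Topbp1, an activator of Atr, by 1.09 (adjusted p = 0.00835). Smc1a, a cohesin core gene, changed on the log2 scale by 0.51 (adjusted p = 0.00203), Cdk6 by 0.53 (adjusted p = 0.0023), Tfdp1, the partner of E2F factors, by -0.99 (adjusted p = 0.00171) and Orc5 of the origin recognition complex by -0.61 (adjusted p = 0.00775) in the same comparison. The polymerase subunit gene Pole3 was called for Smyd3 ASO over control ASO, at a log2 change of 0.52 (adjusted p = 0.00358). Of 11 other nucleotide supply genes, 2 were lower with control ASO over untreated (18.2% called, beside 45.9% of all genes). Dut, which removes dUTP, changed on the log2 scale by -0.70 (adjusted p = 0.000606) and Dtymk, the thymidylate kinase gene, by -0.58 (adjusted p = 0.00862), while Ctps, a CTP synthase gene, was higher with Smyd3 ASO over control ASO by 0.96 (adjusted p = 0.0249).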

How the data were processed

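RNA from liver pieces of 21 mice was sequenced with a 3′ mRNA kit as 35 libraries, and the authors merged the repeat libraries of the ASO-treated mice into 1 column per mouse. The deposited values used are raw counts per Ensembl gene. Reads were aligned with HISAT2 2.1.0 to mm10, and DESeq was named, per the submitters' processing notes. The counting tool, its annotation and whether it used strand are not given in the sources used here. A normalized copy of the same table was not used. IDs were matched to GENCODE release M21 symbols (all 55413 matched).

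The members and gene lists were chosen with earlier results of these data known. Genes were kept by filterByExpr over the 4 groups (15297 of 55413), scaled by TMM and tested in R 4.3.3 with edgeR 4.0.16 (glmQLFit with robust fitting, glmQLFTest, two-sided), with each of 6 comparisons fitted on its own 2 groups and Benjamini-Hochberg adjustment over all genes tested. The scripts were tested on simulated counts in which only the more abundant genes were given known changes. How well changes are found at low counts was therefore not tested. Alternatives were no filter, library totals, DESeq2 1.42.0, limma 3.58.1 (voom), all 4 groups in one fit, the replicate number as a block, thinning every mouse to 4556484 counts, and leaving out each mouse in turn. Any member could be named. Every mouse's values or their range are given for Mki67, Top2a, Ccnb1, Cdk1, Mcm2, Mcm6, Pcna, Tyms, Ccne1 and Ccne2 and for the 3 members of each role with the smallest adjusted p in any comparison. Of each other list, the 3 genes with the smallest adjusted p in Smyd3 ASO over control ASO or control ASO over untreated are named, with Cdkn1a and Ccnd1. Other members were given in detail after their values were seen. Replicate mice differed beyond counting noise in all 46 pairs within groups (chi-square per gene at least 24.3), so none was counted as a repeat. Intervals and limits are exact at 95% and cover counting error only.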

Additional observations from a re-analysis of the deposited data

Results flagged for a closer look

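In each group the highest and lowest mouse was checked for a gap to its nearest neighbour that is large against the range of the group (Dixon's criterion). Of 96 checks, 10 met it, where chance gives about 1 in 20. Untreated mouse 5 stood above its group for Mcm2, at 8.02 CPM with the next mouse at 3.01 CPM. Untreated mouse 3 stood below its group for Cdc20, at 2.18 CPM with the next at 9.90 CPM. At day 133, mouse 3 was high for Mcm6 (7.54 CPM, next 3.73 CPM), and mouse 4 was high for E2f8 (10.1 CPM, next 2.54 CPM) and Mcm10 (131.8 CPM, next 98 CPM). In the control-ASO group, mouse 4 was high for Tyms (135.9 CPM, next 80.6 CPM) and E2f2 (2.94 CPM, next 1.56 CPM) and low for Cenpa (7.91 CPM, next 12.3 CPM). Mouse 3 of that group was low for E2f8 (0.126 CPM, next 0.893 CPM), and mouse 5 was high for the sum of Mcm2 to Mcm7 (28.2 CPM, next 23.2 CPM).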

How the results depend on the processing

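Of 2310 log2 changes of named members and of Smyd3 recomputed under the alternatives, 2063 kept their direction and side of the threshold, 103 lost a call, 75 gained one and 69 changed sign. Of those 69, 66 passed the threshold in neither fit, and the other 3 were Pcna, Rrm1 and Mcm4 in control ASO over untreated with library totals. With library totals the new log2 changes were 0.011 (Mcm10) in Smyd3 ASO over control ASO. They were 0.21 (Mcm2), 0.60 (Mcm6), 0.37 (Pcna), 0.78 (Cdc20), 0.62 (Rrm1) and 0.82 (Mcm4) in control ASO over untreated. They were 0.85 (Mki67), 0.26 (Mcm6), 0.40 (Ccne1), 0.20 (Ccne2) and 0.29 (E2f8) in Smyd3 ASO over untreated. They were 0.32 (Cdk1), 0.30 (Rrm1), 0.22 (Mcm10) and 0.48 (Mcm4) in day 133 over untreated. They were 0.15 (Tyms) and 0.12 (Smyd3) in control ASO over day 133. They were 0.28 (Ccne2) and 0.19 (E2f2) in Smyd3 ASO over day 133. With limma voom Cdc20 became 0.028 in control ASO over untreated, Mcm4 became 0.083 in control ASO over untreated, Mcm4 became 0.0064 in day 133 over untreated and E2f2 became 0.45 in Smyd3 ASO over day 133. With no filter on low counts Mki67 became 0.019 in Smyd3 ASO over untreated. Leaving out 1 mouse, the ranges were Mcm10 -0.16 to 0.074 in Smyd3 ASO over control ASO. They were Cdc20 -0.27 to 0.13, Mcm4 -0.22 to 0.31 and Smyd3 -0.11 to 0.15 in control ASO over untreated. They were Mki67 -0.23 to 0.17 in Smyd3 ASO over untreated. They were E2f8 -0.10 to 1.00 and Mcm4 -0.44 to 0.24 in day 133 over untreated. They were Rrm1 -0.0035 to 0.15, Mcm4 -0.065 to 0.38 and Smyd3 -0.29 to 0.0053 in control ASO over day 133. They were Mcm6 -0.048 to 0.41, Ccne2 -0.38 to 0.37 and E2f2 -0.55 to 0.67 in Smyd3 ASO over day 133. Library totals gave, as members called higher and lower, 28 and 3 for control ASO over untreated, 20 and 4 for Smyd3 ASO over untreated, 4 and 4 for day 133 over untreated, 17 higher for Smyd3 ASO over day 133, and 1 lower for Smyd3 ASO over control ASO. With no filter the last count was 1, and with DESeq2 it was 7. For Smyd3 ASO over untreated, DESeq2 called 5 higher and the fit of all 4 groups 6. With limma voom 8 were lower at day 133 over untreated and 2 higher in Smyd3 ASO over day 133. Thinning left 5 lower in control ASO over untreated. Leaving out 1 mouse gave 7 to 19 lower for day 133 over untreated, 5 to 13 higher for Smyd3 ASO over day 133, 2 to 7 lower for Smyd3 ASO over control ASO, 2 to 5 higher and 4 to 8 lower for Smyd3 ASO over untreated, and 5 to 8 lower for control ASO over untreated. Beyond the scaling, the sample left out and the thinning, the cause was not tested.

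The replicate numbers are shared by different mice. Deviations of same-numbered mice had correlations of -0.12 to 0.11, and at most 1 mouse in a comparison correlated best with its own number, so the numbers were not taken to pair the mice. With the replicate block, Cdc20 became 0.057 in control ASO over untreated, Mcm4 became 0.017 in control ASO over untreated, Mcm4 became 0.21 in day 133 over untreated and Ccne2 became 0.075 in Smyd3 ASO over day 133. With it 8 members were lower at day 133 over untreated and 4 in control ASO over untreated.

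The day-133 libraries were the shallowest, and 6 members had 3 or fewer counts there in all 4 mice together.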
